A study of Homo sapiens with 4 samples.

Results

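Glypicans and syndecans are the cell-surface proteins that carry most of the heparan sulfate of a mammalian cell, and their mRNA levels were followed in RKO cells depleted of the chromatin remodeller CHD7. RKO is a human colon cancer cell line. The members were chosen by gene symbol (GPC1, GPC2, GPC3, GPC4, GPC6, SDC1, SDC2, SDC3 and SDC4), with their values in this same contrast already known. Rows were found for 7 of the 9 symbols, among 15357 genes in all, and GPC3 and SDC2 were not analysed here. The 4 samples were 2 of RKO cells stably infected with lentivirus expressing a control shRNA (vector) and 2 of RKO cells infected with lentivirus expressing a CHD7 shRNA (shCHD7_2). Both groups therefore carried a lentiviral insert, and shCHD7_2 was the only CHD7 hairpin sequenced in these libraries. A difference that follows lower CHD7 and one that follows from the hairpin itself therefore cannot be told apart here. RNA was captured with oligo-dT beads and sequenced, and the labels do not say whether the 2 samples of a group came from separate cultures, so p-values measure the spread between samples, which may be technical.

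Glypicans are core proteins held at the outer face of the plasma membrane by a glycosylphosphatidylinositol (GPI) anchor, whereas syndecans cross the membrane and end in a short cytoplasmic tail. Both families carry long sulfated sugar chains that hold growth factors and morphogens such as FGF, HGF, Wnt and Hedgehog proteins close to their receptors. In the gut epithelium syndecan-1 is the best known member, and individual glypicans are known to differ in the ligands they bind.

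The effect of the hairpin on its target was examined first. CHD7 was at 85.4 and 91.0 CPM (counts scaled to a common library size, with TMM factors) in the vector samples and at 55.5 and 50.1 CPM in the shCHD7_2 samples. CHD7 mRNA thus remained at 59.9% of the vector mean (log2 fold change −0.74, SE 0.088, adjusted p = 4.2e-06 by edgeR's quasi-likelihood test). Estimated counts summed to between 15734679 and 16068650 per library. Of the epithelial and colon markers, 7 of 9 were listed and 4 were tested. KRT18, KRT8, EPCAM and CDX2 had mean levels of 58.0, 12.3, 6.70 and 5.10 FPKM (fragments scaled for transcript length and library size). In contrast, CDH1, CLDN4 and LGALS4 did not exceed 0.11 FPKM in any sample, so the mRNA for epithelial cadherin (CDH1) was near 0. The epithelial list summed to between 75.4 and 90.4 FPKM per sample and the fibroblast list, of which COL1A1 and LUM were listed, to at most 0.10 FPKM. Among leukocyte and endothelial markers, PECAM1, VWF and LYZ were at 0.34 FPKM or below in every sample, and CD68, which is also a general lysosomal protein, was at 495 to 611 FPKM and was not called. That level lay above those of 98.9% of tested genes. In bulk RNA, fewer cells of a type and less RNA per cell cannot be told apart.

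Of the 7 members, GPC6 was the only one called after CHD7 knockdown, and it was lower. A call required an adjusted p under 0.05 together with a fold change of at least 1.5. By the same thresholds 344 of 11955 tested genes were called, which is 2.88%, with 1.51% higher and 1.37% lower, a balance that differed between settings. All 7 members passed the filter on low counts. Because the members were selected on this contrast, nothing is read from the count of 1 in 7, and their values are given as a description without a test. A permutation of 2 samples against 2 cannot give a two-sided p below 0.333.

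GPC6 encodes glypican-6, a GPI-anchored proteoglycan that takes part in Hedgehog and Wnt signalling and in skeletal growth. The gene spans chr13:93226842-94407401 on the plus strand (GRCh38, GENCODE 29), with 9 exons in the transcript used here. Its estimated counts were 1231 and 1336 in the vector samples and 563 and 496 in the shCHD7_2 samples. On the CPM scale these were 79.3 and 84.6 against 35.1 and 31.1. Both shCHD7_2 samples lay far below both vector samples, and the gap between the groups was several times the gap within either. Mean GPC6 fell from 82.0 ± 3.77 to 33.1 ± 2.85 CPM (SD, n = 2 per group), or to 40.4% of the vector mean. The fitted log2 fold change was −1.31 (SE 0.093), a level 2.48-fold higher in vector cells. Among the 164 genes called lower, GPC6 was number 17 by the size of the fitted change.

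None of the other glypicans was called. GPC1 (chr2:240435671-240468078, plus strand), a widely expressed glypican that acts as an FGF co-receptor, was at 57.7 and 48.4 CPM in the vector samples and at 67.7 and 80.0 CPM in the shCHD7_2 samples. The groups did not overlap, and the shCHD7_2 mean was 1.39 times that of the vector (log2 fold change 0.48, SE 0.10). GPC1 passed the adjusted p but not the fold threshold. Without vector replicate 1 its log2 fold change was 0.61 and without shCHD7_2 replicate 1 it was 0.59, and in both cases it was called higher, so the number of members called was then 2. GPC4 (chrX:133300103-133415490, minus strand), which promotes synapse formation in the brain when released by astrocytes, was at 33.9 and 33.4 CPM in the vector samples and at 38.9 and 39.5 CPM in the shCHD7_2 samples. Its groups lay close together without overlapping (log2 fold change 0.22, SE 0.093). GPC2 (chr7:100169606-100177372, minus strand), a glypican best known from developing neurons and neuroblastoma, had the fewest counts of the members, at 49 to 70 per sample. It was at 3.16 and 4.24 CPM in the vector samples and 4.24 and 4.39 CPM in the shCHD7_2 samples. The vector and shCHD7_2 ranges of GPC2 overlapped (log2 fold change 0.22, SE 0.21).

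**Figure D1:**
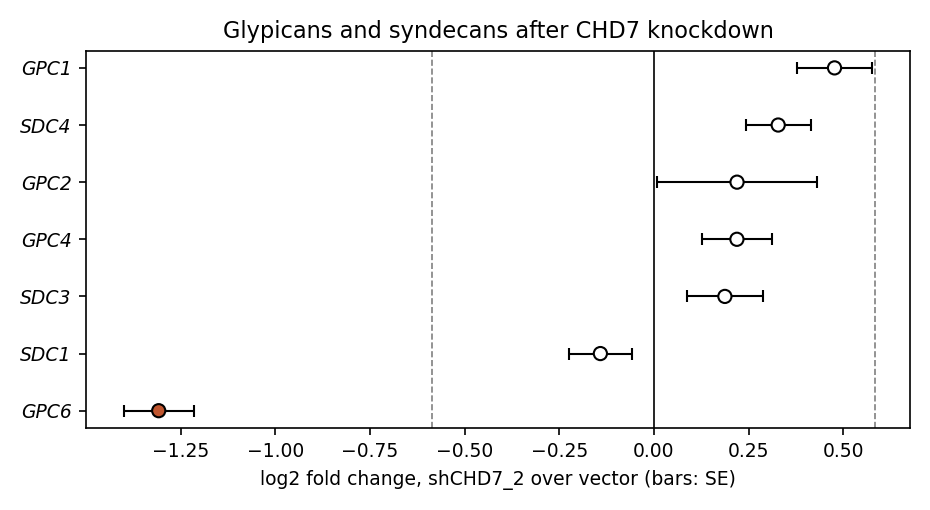
Fitted log2 fold change of shCHD7_2 over vector (horizontal axis) for each glypican and syndecan, with bars of 1 SE from edgeR's fit to 2 samples per group; dashed lines mark a fold of 1.5 and the filled point is the called gene. GPC6 lies at −1.31, while the other members lie between −0.14 and 0.48.

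An earlier scan of these data had found 3 words of 7 bases, which overlap one another in their letters, to be frequent in the 3′ UTRs of genes that fell. The words are AGCTATT, the word GAAGCTA and the word GCTATTA. GPC6 is among those genes, so the comparison is not independent. The longest 3′ UTR of each member was searched in the sense of the mRNA only, and 2 of the 7 held a word, in both cases GCTATTA. The sites are shown because they differ in outcome, GPC6 being called lower and GPC4 not called. They are given 5′ to 3′ in the sense of the mRNA with the word in capitals.
GPC6, chr13:94407353-94407381, plus strand, 3′ UTR position 4147 of 4184: gatagaaaattGCTATTAatcttgtatta
GPC4, chrX:133300832-133300860, minus strand, 3′ UTR position 2018 of 2764: tagcttagactGCTATTActtttacttgg
The GPC6 word lies close to the annotated 3′ end of the transcript. No word was found in the 3′ UTRs of GPC1, GPC2, SDC1, SDC3 or SDC4, of 624 to 3744 bases. At least 1 word was present in 22.3% of 11693 tested genes with a 3′ UTR, in 68.4% of the genes called lower and in 14.9% of those called higher. Long 3′ UTRs hold words more often: among tested genes with a 3′ UTR within 1.25 times the length of that of GPC6 the share was 48.1%, and for GPC4 it was 33.9%. The match is a description of the sequence and not a shown site of regulation.

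Among the syndecans, none was called. SDC1 (chr2:20200797-20225433, minus strand), the main syndecan of epithelia, was at 99.1 and 94.6 CPM in the vector samples and at 83.8 and 91.9 CPM in the shCHD7_2 samples (log2 fold change −0.14, SE 0.084). The lowest vector sample and the highest shCHD7_2 sample of SDC1 were almost level in CPM. In FPKM the groups overlapped, with 30.64 in vector replicate 2 and 30.74 in shCHD7_2 replicate 2. SDC4 (chr20:45325288-45348424, minus strand), a syndecan of focal adhesions, was at 53.1 and 53.2 CPM in the vector samples and at 65.4 and 68.1 CPM in the shCHD7_2 samples. This was a separation wider than the spread of either group, at 1.26-fold (log2 fold change 0.33, SE 0.086), which passed the adjusted p but not the fold threshold. SDC3 (chr1:30869467-30908761, minus strand), the syndecan most abundant in the nervous system, was at 25.1 and 26.9 CPM in the vector samples and at 29.2 and 30.02 CPM in the shCHD7_2 samples (log2 fold change 0.19, SE 0.10).

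In total, 6 of the 7 members had groups that did not overlap in CPM, with 4 higher and 2 lower in shCHD7_2 cells. This is a common outcome with 2 samples per group, since 53.7% of all tested genes did not overlap either. Without the fold threshold 3 members passed (GPC6, GPC1 and SDC4), against 11.5% of all tested genes. The median log2 fold change of the members was 0.22, against 0.00056 over all genes tested.

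FPKM is scaled by transcript length and so allows levels to be set side by side between genes. In vector cells SDC1 was the most abundant member at 31.4 ± 1.12 FPKM (SD, n = 2), followed by SDC4 at 21.4 ± 0.021 FPKM. GPC6 and GPC1 came next at 15.1 ± 0.636 and 14.8 ± 1.87 FPKM, and their values overlapped. GPC4 followed at 9.34 ± 0.113 FPKM, SDC3 at 5.33 ± 0.255 FPKM and GPC2 at 1.5 ± 0.311 FPKM. Over all 4 samples, the ranges of neighbours in this order overlapped only for GPC6 and GPC1. The nearest other neighbours were SDC1 and SDC4. The lowest SDC1 value was 28.42 FPKM and the highest SDC4 value was 28.1 FPKM. Genes further apart in this order could also overlap over all 4 samples. GPC1 reached 22.92 FPKM while SDC4 went down to 21.36 FPKM. GPC6, at 5.86 to 15.54 FPKM, overlapped both GPC4 and SDC3. In shCHD7_2 cells GPC6, at 6.28 ± 0.587 FPKM, came after GPC1 at 21.3 ± 2.36 FPKM and GPC4 at 11.2 ± 0.057 FPKM. It was then level with SDC3, which was at 6.24 ± 0.078 FPKM and lay within the range of the 2 GPC6 values.

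**Figure D2:**
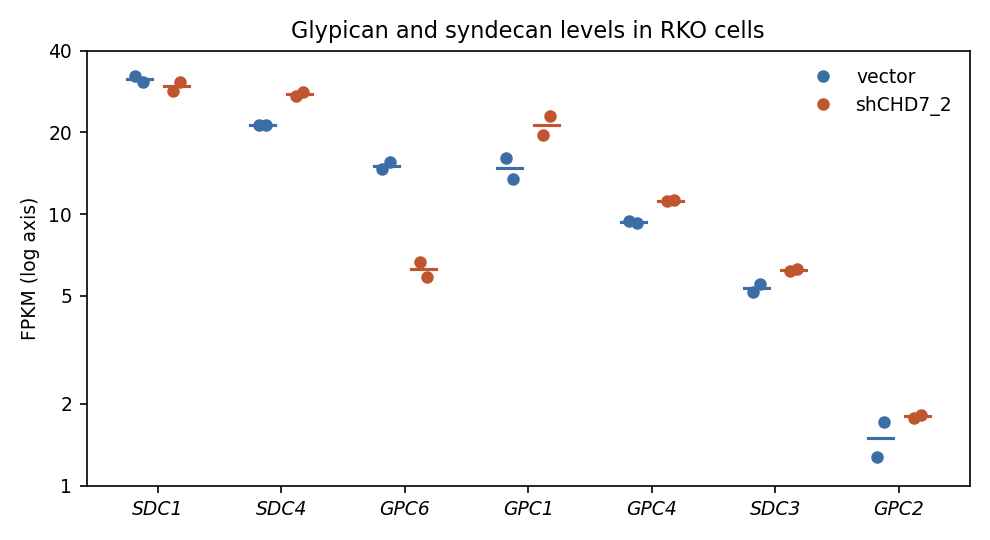
FPKM on a log axis for each member in each of the 4 samples, with horizontal lines at group means (n = 2) and genes ordered by the vector mean. GPC6 drops from 14.64 and 15.54 to 6.69 and 5.86 FPKM, while SDC1 stays highest in both groups.

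The makeup of the glypican mRNA pool differed between the groups while its sum did not separate them. The 4 glypicans summed to 41.49 and 40.02 FPKM in the vector samples and to 39.21 and 41.84 FPKM in the shCHD7_2 samples, and these ranges overlapped. GPC6 made up 35.3% and 38.8% of that sum in the vector samples and 17.1% and 14.01% in the shCHD7_2 samples. GPC1 made up 38.9% and 33.7% in the vector samples and 49.9% and 54.8% in the shCHD7_2 samples. GPC6 and GPC1 were thus on a par in vector cells, and GPC1 supplied about as much glypican mRNA as all others together in shCHD7_2 cells. The mean share of GPC4 was 22.9% in vector and 27.7% in shCHD7_2 cells. The 3 syndecans summed to 58.77 and 57.51 FPKM in the vector samples and to 61.82 and 65.13 FPKM in the shCHD7_2 samples, without overlap. Within the syndecan sum the mean share of SDC4 was 36.8% in vector and 43.6% in shCHD7_2 cells, and that of SDC1 was 54.1% and 46.6%. These sums are of mRNA, and leave out GPC3, GPC5 and SDC2.

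**Figure D3:**
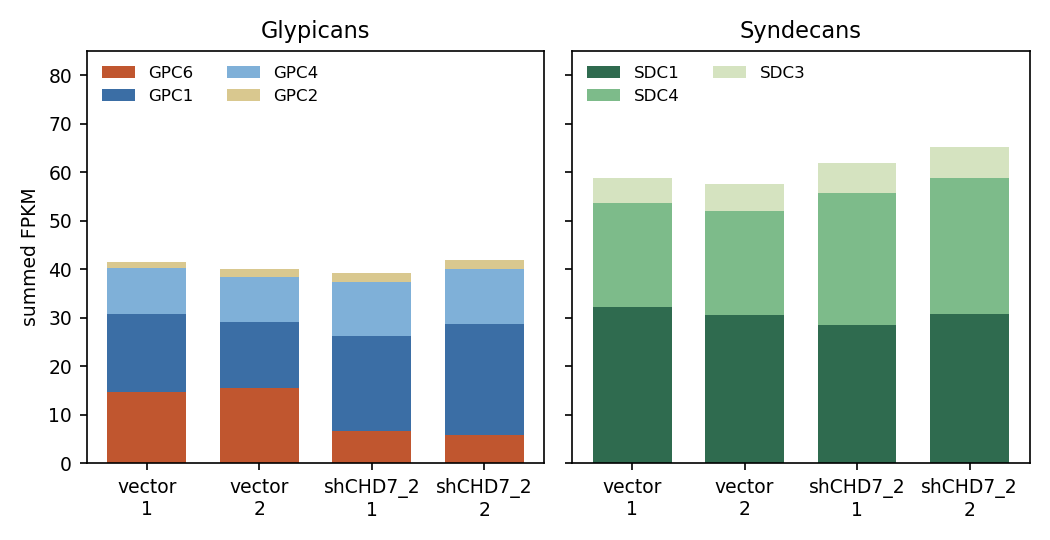
Stacked FPKM of the glypicans (left) and syndecans (right) in each of the 4 samples, with 1 colour per gene. The glypican bars reach 39.21 to 41.84 FPKM in every sample although the GPC6 segment shrinks in shCHD7_2 cells, and the syndecan bars are taller in shCHD7_2 cells.

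The ratio of count to FPKM gives the effective transcript length behind each value, and a shift in it can reflect a different mix of transcripts. This ratio, relative to the median gene of a sample, ranged from 0.840 for GPC2 to 1.85 for GPC6. Between the groups it moved by 0.00087 on the log2 scale for GPC6 and by at most 0.012 in size for any member (SDC1). CHD7 itself moved by −0.11, a larger shift than in all but 1.73% of 9275 genes with a mean count of at least 200. The counts of all 7 members were whole numbers in all 4 samples, so no division of their reads between genes was seen. Antisense transcripts overlap GPC6 (GPC6-AS1 and GPC6-AS2), the microRNA MIR149 lies within GPC1, and no overlapping gene was listed. The strand setting of the libraries is not given in the sources used here, so sense and antisense reads cannot be told apart.

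The machinery that builds and modifies heparan sulfate was examined in lists of genes. Across 9 lists, 110 of 153 genes were tested and 1, TGFBR3, was called by edgeR's quasi-likelihood test. Over all tested genes the called share was 2.88%, so a short list would often hold no call. In the other 8 lists, none of 103 genes was called by edgeR or by DESeq2, and 28 (27.2%) had an unadjusted p under 0.05 in edgeR, against 25.4% of all tested genes. Genes passing the adjusted p without the fold threshold numbered 7 higher and 9 lower over all lists, or 14.5% against the 11.5% of all tested genes; all but 1 are named below, and those of them that are not among the most abundant genes of their list, together with NOTUM, were picked with their values already in view.

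The linker tetrasaccharide enzymes attach the first sugars to the core protein. None of 6 tested genes was called, and the median log2 fold change was −0.0066. XYLT2, a xylosyltransferase that starts the chain, was at 16.1 FPKM with a log2 fold change of 0.25 (SE 0.088). B4GALT7, a galactosyltransferase of the linker, was at 17.7 FPKM with a log2 fold change of −0.0034 (SE 0.104), a value that changed sign between settings.

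The polymerases and modifying enzymes extend and sulfate the chain, and 0 of 10 tested genes were called, with a median of −0.029. NDST1, which removes acetyl groups from the chain and replaces them with sulfate, was nearest to the fold threshold, at 76.4 and 67.9 CPM in the vector samples and 49.5 and 47.6 CPM in the shCHD7_2 samples. Its 2 shCHD7_2 samples were below both vector samples, and edgeR's quasi-likelihood test gave a log2 fold change of −0.57 (SE 0.090, adjusted p = 1.4e-04). It was called without vector replicate 2 (−0.65) and without shCHD7_2 replicate 1 (−0.60). HS2ST1, an O-sulfotransferase, had a log2 fold change of −0.29 (SE 0.094, edgeR adjusted p = 0.0497). HS2ST1 passed in 2 of 13 alternative settings, and its value was −0.19 without vector replicate 2 and −0.17 without shCHD7_2 replicate 2. The 2 most abundant of these genes, EXTL2 and EXT2, had values of −0.12 (SE 0.084) and 0.037 (SE 0.082). EXT2 forms the chain polymerase with EXT1.

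Supply of sulfate and sugar donors was covered by 13 tested genes, of which 0 were called (median −0.034). SLC26A2, a sulfate transporter at the plasma membrane, was at 69.8 and 77.3 CPM in the vector samples and 53.4 and 45.9 CPM in the shCHD7_2 samples. The groups did not overlap (log2 fold change −0.57, SE 0.094, adjusted p = 2.6e-04 by edgeR). It was called without vector replicate 1 (−0.64) and without shCHD7_2 replicate 1 (−0.69). UGDH, which makes UDP-glucuronic acid for the chain, had a log2 fold change of −0.43 (SE 0.096, edgeR adjusted p = 0.0044). The abundant SLC35B2, a transporter of the sulfate donor into the Golgi, had a value of 0.20 (SE 0.087), and IMPAD1, a Golgi phosphatase that clears the product of sulfation, had a value of 0.0022 (SE 0.078).

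Enzymes that remodel or degrade the chain gave 0 calls among 9 tested genes (median −0.063). The abundant lysosomal enzyme GUSB had a log2 fold change of −0.15 (SE 0.089). GPI anchor synthesis, which glypicans but not syndecans need, gave 0 calls among 30 tested genes (median −0.0045). DPM1 and DPM3, subunits of the enzyme that supplies mannose to the anchor, were at 125 and 100.1 FPKM with log2 fold changes of 0.17 (SE 0.079) and 0.21 (SE 0.110). PIGA, GPAA1 and PIGS passed the adjusted p at 0.40, 0.32 and 0.29, in 9, 8 and 6 of 13 alternatives. GPAA1 was at 0.20 without vector replicate 2 or without shCHD7_2 replicate 2, and did not pass in either case. PGAP1 passed at −0.46, in 8 of 13 alternatives. PGAP1, which trims the anchor after transfer, was called without shCHD7_2 replicate 1 (−0.66) and did not pass the adjusted p without shCHD7_2 replicate 2 (−0.28).

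Core proteins are cut from the surface by proteases and lipases, of which 0 of 10 tested were called (median −0.14). MMP14, a membrane metalloprotease that cleaves syndecan-1, had a log2 fold change of −0.32 (SE 0.088) and PCSK7, a proprotein convertase, of 0.31 (SE 0.091), and both passed the adjusted p, in 4 and 6 of 13 alternatives. The abundant ADAM10 and FURIN, the latter a convertase that processes glypicans, had values of −0.090 (SE 0.081) and 0.18 (SE 0.079). NOTUM, a secreted enzyme known to act on glypicans and Wnt proteins, was at 25 to 51 counts and was called only without shCHD7_2 replicate 1 (−1.01).

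Other proteoglycans that can carry heparan sulfate held the single called gene of the lists. TGFBR3, or betaglycan, is a co-receptor for TGF-β and was weakly expressed, at 12.2 and 10.3 CPM in the vector samples and 7.17 and 6.71 CPM in the shCHD7_2 samples. It fell by 0.70 on the log2 scale (SE 0.156, adjusted p = 0.0043 by edgeR), and both shCHD7_2 samples were below both vector samples. The call was lost without vector replicate 1 (−0.57, adjusted p = 0.068 by edgeR) and with no filter on low counts (adjusted p = 0.079). CD44, an adhesion receptor with heparan sulfate on some isoforms, was at 309 and 306 CPM in the vector samples and 237 and 222 CPM in the shCHD7_2 samples (log2 fold change −0.42, SE 0.074, edgeR adjusted p = 4.7e-04). NRP1, a co-receptor for VEGF and semaphorins, had a log2 fold change of 0.40 (SE 0.086, edgeR adjusted p = 0.0036). The median of the 7 tested genes was 0.090.

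The cytoplasmic partners of syndecans gave 0 calls among 9 tested genes (median −0.12). SDCBP, or syntenin, which binds the syndecan tail, was at 122 FPKM with a log2 fold change of −0.058 (SE 0.072), and CTTN, an actin-binding protein, was at 96.8 FPKM with −0.070 (SE 0.074). PDCD6IP, or ALIX, which joins syntenin in exosome formation, had a value of −0.26 (SE 0.075, edgeR adjusted p = 0.028). Ligands that bind heparan sulfate and their receptors gave 0 calls among 16 tested genes (median 0.074). HGF was at 209 FPKM, a level above those of 97.4% of tested genes and high for colon cancer cells. Its counts were whole numbers in every sample, but whether the reads behind it came from HGF was not tested. It had a log2 fold change of 0.30 (SE 0.074, edgeR adjusted p = 0.010), and its receptor MET was at 45.6 FPKM with −0.013 (SE 0.078), a value that changed sign between settings.

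**Figure D4:**
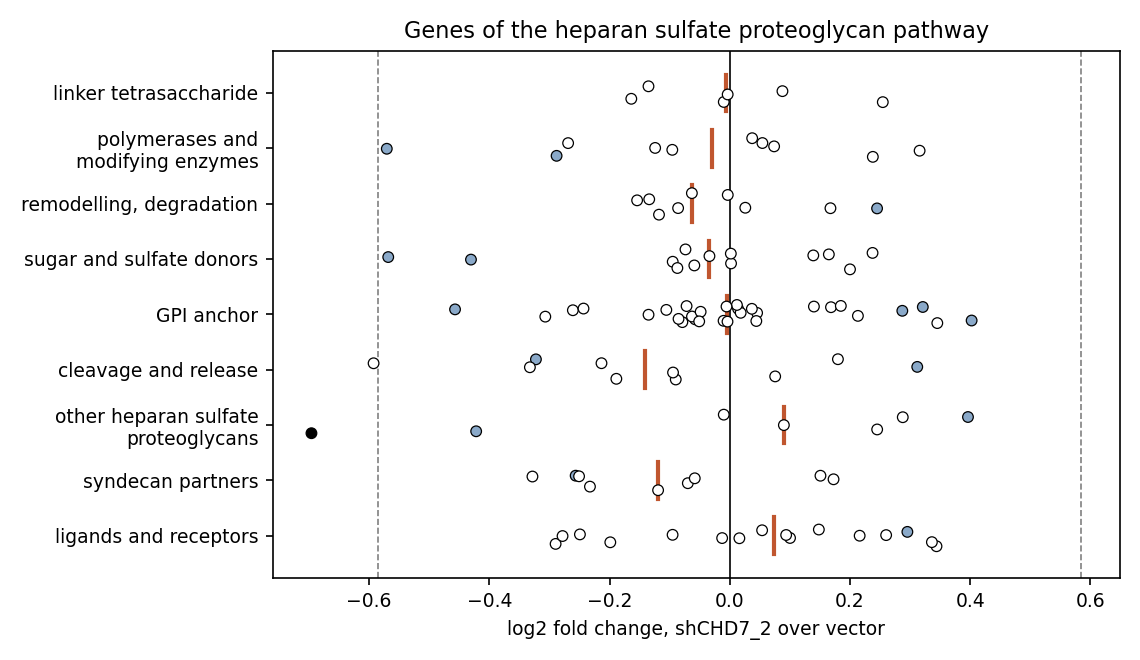
Fitted log2 fold change of shCHD7_2 over vector (horizontal axis, 2 samples per group) for each tested gene of the 9 pathway lists, 1 list per row with a little vertical scatter; short lines are list medians and dashed lines a fold of 1.5. Black is the called TGFBR3, blue marks an adjusted p under 0.05 without a call and white the rest, and list medians lie between −0.14 and 0.090.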

How the data were processed

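RNA-seq was performed in RKO cells, with 2 vector and 2 shCHD7_2 samples grouped by their titles. The submitters' processing notes name Bowtie2, RSEM, DESeq2 and hg38; versions, annotation and filters are not given in the sources used here. The authors deposited estimated counts per gene, which are not normalized and of which 13.6% to 14.7% per sample were not whole, as when reads are divided between similar genes. The authors also deposited FPKM values, scaled for length and depth.

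Estimated counts were rounded and, in R 4.3.3, filtered with filterByExpr of edgeR 4.0.16, scaled by TMM and tested with the quasi-likelihood test over 11955 genes, with Benjamini-Hochberg adjustment. The estimated coefficient of biological variation was 0.0579, and the F statistic gave the standard errors. Replicates differed by more than sampling noise (chi-square per gene 3.94 in vector and 6.06 in shCHD7_2). Alternatives, listed in the closing section, used DESeq2 1.42.0 and limma 3.58.1. Gene positions and 3′ UTRs are those of GENCODE 29 on GRCh38.

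The members, gene lists and 3′ UTR words were chosen with earlier results of these data known. Genes named by rule are the members, CHD7, the called genes of each list (up to 5) and its 2 most abundant tested genes not called, the 5 genes nearest to GPC6, and the 2 nearest listed protein-coding neighbours of GPC6 on each side. List genes past the adjusted p but not called and not among the most abundant, and NOTUM, fall outside that rule. The value of 1 list gene that this rule covers is left out here. Protein sequences were not used here.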

Additional observations from a re-analysis of the deposited data

How the results depend on the processing

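Over 13 alternatives the log2 fold change of GPC6 lay between −1.40 and −1.15, and between −1.40 and −1.22 with 1 sample left out, where the lone sample of a group is assumed to vary like the other group. GPC6 was not called in 1 of them, limma on log2(FPKM + 1) over all genes (−1.15, adjusted p = 0.061, against at most 0.011 in the other alternatives), where the members called were 0 and all calls 23; that fit tests more genes of low level. No member changed sign. The members called were 3 with no fold threshold and 1 to 2 with a sample left out, GPC1 then ranging from 0.35 to 0.61 (0.61 without vector replicate 1, 0.59 without shCHD7_2 replicate 1). Without regard to fold, GPC1 passed the adjusted p in 10 and SDC4 in 7 of the 13 alternatives. Among list genes, CD44 did so in 12, NDST1 and SLC26A2 in 11, NRP1 in 10, UGDH and HGF in 9 and PDCD6IP in 4. In the order of levels, 4 of 7 ranks were kept when ordered by the shCHD7_2 samples.

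All calls numbered 344, against 221 with DESeq2, 141 with no filter on low counts, 172 with limma on log2(FPKM + 1) at a mean FPKM of at least 1, 1373 with no fold threshold and 308 to 380 with a sample left out. Of these, 180 of 344 were higher, against 209 of 345 with library totals, 93 of 221 with DESeq2, 53 of 141 with no filter and 6 of 23 with limma over all genes. The cause was not tested. The replicate block gave 329 calls and changed no call of a member or list. Same-numbered samples did not deviate together (correlation −0.20), so the numbers were not taken as pairs. With 2 samples per group, samples of unlike number then deviated together to that same degree. The crossed pairing, which joins samples of unlike number and was added after seeing the data, gave 423 calls.

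In the lists, removing the fold threshold gave 2 genes for polymerases and modifying enzymes, 1 for remodelling, 2 for donor supply, 4 for GPI anchor synthesis, 2 for cleavage, 3 for other proteoglycans, 1 for syndecan partners and 1 for ligands and receptors. With a sample left out the counts were 0 to 1 for polymerases, donor supply, GPI anchor synthesis, cleavage and other proteoglycans, and 0 for the rest. TGFBR3 lost its call, leaving 0 in its list, with no filter, in the 3 limma fits and without vector replicate 1, its adjusted p over the 13 alternatives running from 0.00215 to 0.139. CHD7 was lower in every alternative but under the 1.5-fold threshold in the limma fits (−0.51 and −0.58).

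Values near 0 changed sign without a call. B4GALT7 was 0.040 with library totals, 0.032 with limma at a pseudocount of 1 (with and without the FPKM minimum), 0.034 at 0.1 and −0.097 to 0.080 with a sample left out. MET was 0.032, 0.022 and 0.022 in the same first settings, and −0.11 to 0.079 with a sample left out. EXT2 was −0.0024 to 0.076, IMPAD1 −0.094 to 0.089 and TGDS −0.015 to 0.040 with a sample left out, and IMPAD1 was −0.0016 with no filter.

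With 2 samples per group, differences under 1.5-fold are poorly resolved for genes of few counts such as GPC2.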

Other observations

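The 5 tested genes whose pattern was most like that of GPC6, by Euclidean distance between mean-centred log2 CPM over the 4 samples, were ANXA1 (distance 0.095), APIP (0.13), GAP43 (0.15), DEGS1 (0.16) and YWHAE (0.17), against a median distance of 1.33 over all genes tested. ANXA1, a phospholipid-binding protein that limits inflammation, was at 48.6 and 50.2 CPM in the vector samples and at 19.9 and 19.1 CPM in the shCHD7_2 samples. APIP, an enzyme of methionine salvage, was at 35.7 and 38.5 CPM against 16.5 and 15.7 CPM. GAP43, a growth cone protein, was at 13.7 and 14.4 CPM against 6.67 and 5.83 CPM. DEGS1, which makes ceramide, and YWHAE, a 14-3-3 protein, had log2 fold changes of −1.40 (SE 0.087) and −1.32 (SE 0.070). All 5 were called lower, and likeness to GPC6 over 4 samples in 2 groups is mainly likeness in the size of that difference.

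None of the listed genes next to GPC6 on chromosome 13 was called lower. After the gene, DCT starts 29.4 kb away and had 2 to 6 counts per sample, too few to be tested. TGDS, an enzyme of sugar nucleotide metabolism 166.6 kb away, was at 23.8 and 23.4 CPM in the vector samples and at 24.3 and 23.4 CPM in the shCHD7_2 samples (log2 fold change 0.015, SE 0.103). Before it, the nearest listed genes were far off. SLITRK6, 7420.2 kb away, had 0 to 2 counts. SPRY2, a feedback inhibitor of FGF receptor signalling, lies 12885.9 kb away. It rose from 48.5 and 45.9 CPM to 90.1 and 84.3 CPM (log2 fold change 0.89, SE 0.088, adjusted p = 2.7e-07 by edgeR's quasi-likelihood test).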
